A study of Mus musculus with 4 samples.

Results

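The region described here is a block of 780 kb of mouse chromosome 1 next to one breakpoint of the InvF inversion, chr1:74830001-75610000 in build mm9. It was taken by position alone: every pair of 10 kb bins of which both lie in this block, at least 20 kb apart, in the maps of all 4 genotypes. That gives 2926 of the 500500 pairs of the captured 10000 kb map. The study asked how structural variants at the Epha4 locus change the folding of the chromosome, and measured it with Capture Hi-C, in which fragments ligated within fixed nuclei are enriched with probes against 1 locus and sequenced in pairs. The tissue was the distal limb bud of E11.5 embryos, a mixture of cell types, and each genotype has 1 library, so no difference below has a replicate check and no p-value was computed.

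The InvF library carries an inversion, the DelB and DelBs libraries carry deletions, and the WT library carries none of them. The labels give the genotype names only. In the maps the InvF inversion spans chr1:74830001-75900000, which is 1070 kb. The DelB deletion spans chr1:76390001-78060000 (1670 kb) and the DelBs deletion spans chr1:76390001-77860000 (1470 kb). At the resolution of 10 kb bins the block lies within the inversion and outside both deletions. In InvF it is turned as a whole together with the 290 kb that follow it (chr1:75610001-75900000), so its first bins, which in WT border the sequence to their left, stand beside the sequence to the right of the inversion. Whether the embryos were homozygous, how many were pooled and what share of the cells carried the allele are not given in the sources used here.

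Chromosomes of mammalian cells fold into domains, stretches of sequence that contact each other more often than they contact their neighbours. The borders between domains are often held by the DNA-binding protein CTCF together with cohesin, the ring that extrudes chromatin loops, and a pair of CTCF sites facing each other often anchors a strong point contact. Inversions can place a boundary or an enhancer beside another gene, and at the Wnt6, Ihh, Epha4 and Pax3 locus such rearrangements are known to cause malformed digits. In the RefSeq table of GRCm38.p6, 31 protein-coding genes stand between Wnt6, a secreted ligand of the Wnt pathway, and Slc4a3, an anion exchanger. No protein-coding gene stands between Slc4a3 and Epha4, a receptor tyrosine kinase for ephrins. Among the 31 are Wnt10a, another Wnt ligand, Ihh, the hedgehog ligand of growing cartilage, Des, the muscle intermediate filament protein, and Tuba4a, an alpha tubulin. The coordinates of GRCm38 and mm9 cannot be set against each other here, so these genes are given as neighbours only, and the word gene-dense was not checked bin by bin.

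RefSeq promoter sequences were matched for 30 of the 33 genes from Wnt6 to Slc4a3, with 37 promoters in all. The CTCF-core-like string AGGNGGC (N is any base, both strands, in the 250 bases before the start) was present in 19 of the 37, or 51.4%, against 25% of the 32851 promoters of the table. The promoters between Wnt6 and Slc4a3 had a median GC content of 61.6%, against 52.4% over the table, and a match is a description of letters, not of binding. To show what such promoters look like, 2 are printed here from 5′ to 3′ on the strand of the gene. Ihh was taken as one of the ligand genes of the stretch and Slc4a3 as its last gene. Capitals mark matches to the string. The Ihh promoter (GRCm38.p6 chr1:74951673-74951922, minus strand) holds 3 matches in 72% GC, and the Slc4a3 promoter (GRCm38.p6 chr1:75546212-75546461, plus strand) holds 0 in 70% GC.
Ihh: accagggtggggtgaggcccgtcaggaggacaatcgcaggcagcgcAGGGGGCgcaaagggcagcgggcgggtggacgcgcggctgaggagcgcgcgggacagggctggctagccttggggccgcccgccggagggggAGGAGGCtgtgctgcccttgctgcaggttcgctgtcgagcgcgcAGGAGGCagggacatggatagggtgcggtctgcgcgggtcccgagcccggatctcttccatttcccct
Slc4a3: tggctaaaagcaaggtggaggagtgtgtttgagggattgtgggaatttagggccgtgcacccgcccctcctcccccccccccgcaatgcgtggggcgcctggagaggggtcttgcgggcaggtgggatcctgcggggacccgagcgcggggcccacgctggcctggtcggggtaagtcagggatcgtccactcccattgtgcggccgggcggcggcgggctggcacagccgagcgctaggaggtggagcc

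The InvF, DelB, DelBs and WT maps held 6073471, 5543587, 5832748 and 5155274 counts of read pairs. The block held 196421 of them in InvF, 231388 in DelB, 243445 in DelBs and 165460 in WT, and at most 1 of its 2926 pairs was without a count in any library. The share of the map's counts depends on what else was captured, since the deletions take sequence out of the map. Each mutant library was therefore scaled to WT by its counts in untouched pairs, which are 20 kb to 2 Mb apart with no rearranged sequence in or between their bins. The factors were 1.24 for InvF, 1.43 for DelB and 1.5 for DelBs. All intervals below are 95% intervals that cover counting error only, and all 3 mutants are set against the same WT library. To show how far 2 maps differ where nothing was rearranged, the same values were taken in 7 windows of the same size elsewhere in the map.

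The block as a whole stayed near its WT level of internal contacts. After scaling, its sum was 0.955 of WT in InvF (0.948 to 0.961), 0.976 in DelB (0.969 to 0.982) and 0.983 in DelBs (0.977 to 0.989). The 7 untouched windows lay between 0.934 and 1.04 in InvF, between 0.946 and 1.01 in DelB and between 0.876 and 1.03 in DelBs. None of the 3 sums left the range of its own library. In InvF that rests on 1 window, chr1:78260001-79040000, which was the lowest in InvF and in DelBs. Every other InvF window stood at 0.961 or more, above the block. Scaled by all counts of the map instead, the sums were 1.01, 1.3 and 1.3, so the side of 1 on which each falls is set by the scaling. The authors' KR-balanced signal, in which every bin of a library is brought to about the same sum, gave 0.932, 1.00 and 0.991.

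In InvF the ratio was lowest at the longest distances. Pairs 20 to 100 kb apart stood at 0.957 of WT, those 100 to 200 kb apart at 0.967 and those 200 to 400 kb apart at 0.972. Pairs 400 kb or more apart stood at 0.848 (0.826 to 0.871). The first 50 kb of the block, next to the breakpoint, took part in 1516 of their 11304 counts in InvF and in 2155 of 10715 in WT. Those pairs alone stood at 0.566 of WT, so the longest band includes the low end of the block. How much of its lower ratio comes from distance was not tested. In the deletions the longest band was not lower, with 0.945 in DelB and 0.947 in DelBs below 100 kb and 1.06 in both at 400 kb or more. Scaled by all counts, the 3 shorter InvF bands stood at 1.01, 1.02 and 1.03 and the longest at 0.895, and the band below 100 kb stood at 1.26 in DelB and 1.25 in DelBs. The side of 1 on which the shorter bands fell thus depends on the scaling. The share of the contacts of the block's bins that stayed inside it was 41.5% in InvF, 49.2% in DelB, 48.7% in DelBs and 46.7% in WT. Sequence missing from the map moves this share too, so only the InvF and WT values are taken over the same captured length.

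The internal pattern of the turned block was closer to WT in the same order of sequence than to WT turned end for end. The block was divided into 26 intervals of 30 kb, and the log2 of observed over expected counts was compared over their 351 pairs, the expected count being the library's mean at that distance over untouched pairs. The same sequence in InvF and WT gave a Pearson correlation of 0.87 (Spearman 0.86). With the WT block turned end for end within its own coordinates, it was 0.21. That order does not match positions on the chromosome, because InvF turns the block together with the 290 kb that follow it. WT against its own turned map gave 0.18, and turned InvF windows elsewhere ranged from -0.27 to 0.73, so a turned value has no fixed level. Raw maps carry stripes of uneven coverage that stay with the sequence and so match when the same sequence is compared. The same-sequence values for DelB and DelBs, in which the block keeps its place, were 0.96 and 0.96. These correlations are descriptions over 351 points that share bins, capture coverage and library, and they carry no test.

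The InvF value nevertheless stood below the deletions and below the 7 untouched windows of its own library, which lay between 0.95 and 0.99. Without the 50 kb next to the breakpoint it was 0.90, and without the first 100 kb it was 0.95, within the range of those windows. On the KR-balanced signal, which removes the stripes that uneven coverage leaves in the raw maps, the same-sequence correlation was 0.69 in InvF, 0.92 in DelB and 0.93 in DelBs. The turned correlation there was 0.49 in InvF and 0.33 for WT with itself, so the gap between the orders was narrower than on raw counts and InvF was more like turned WT than WT was. Balancing levels the sum of each bin, so KR values inside the block also depend on contacts outside it, which differ in InvF.

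**Figure D1:**
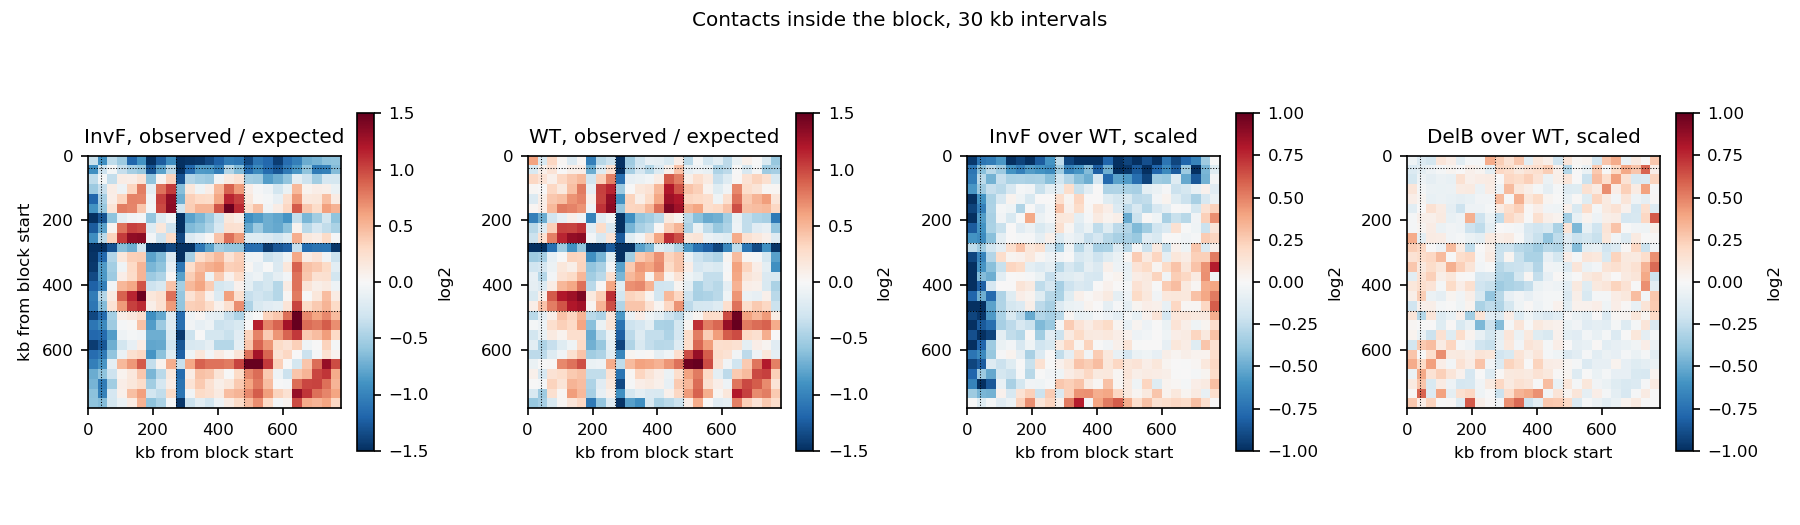
Contacts inside the block in 30 kb intervals, with both axes in kb from the start of the block in the order of the WT sequence and dotted lines at the 3 boundaries. The first and second panels show log2 observed over expected counts in InvF and WT, where the same squares and the same pale or blue stripes of weakly covered bins recur, and the other panels show the log2 scaled ratio of InvF and of DelB to WT, where InvF has a blue band along the first 100 kb that DelB does not.

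The difference was largest at the end next to the breakpoint. The first bin of the block, chr1:74830001-74840000, had 1634 counts with the rest of the block in InvF, 3615 in DelB, 4147 in DelBs and 2593 in WT. Scaled, that was 0.507 of WT in InvF (0.476 to 0.539), 0.973 in DelB and 1.07 in DelBs. The breakpoint was placed only to 10 kb, and whether part of this bin lies outside the inversion was not tested. The InvF ratio stood at 0.574 in the next bin and at 0.687 in the fifth, and the highest of the first 10 bins stood at 0.876. Beyond 100 kb the 63 bins of the middle ranged from 0.860 to 1.07 with a median of 0.971.

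The opposite end of the block, which is not next to a breakpoint, moved the other way. Its last 5 bins stood between 1.08 and 1.21 of WT in InvF. Over the 78 bins DelB ranged from 0.90 to 1.04 and DelBs from 0.825 to 1.08, so the InvF ends left the range of both deletions on both sides. The KR-balanced signal gave the same order in InvF with a wider spread, from 0.392 in the first bin to 1.35 in the last 50 kb. Balancing levels the sum of each bin, so these KR ratios also depend on contacts outside the block. Over the whole map the raw InvF counts stood at 1.51 of WT in the first 50 kb and at 0.865 in the last. How far this widens the KR spread was not tested.

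**Figure D2:**
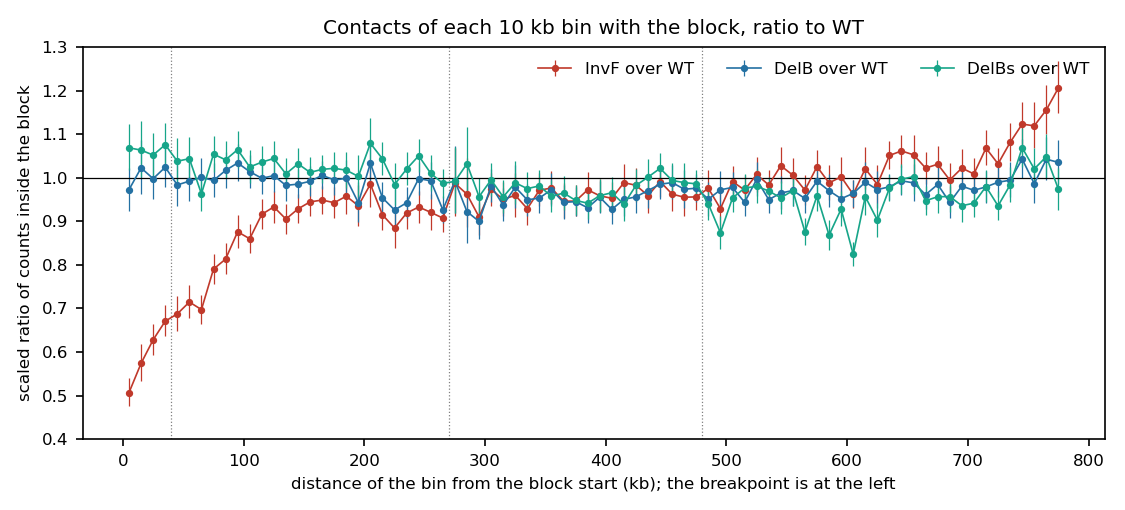
Scaled ratio to WT of the counts of each 10 kb bin with the rest of the block, against its distance from the block start in kb, for InvF, DelB and DelBs, with 95% counting intervals as bars and dotted lines at the 3 boundaries. InvF climbs over the first 100 kb, from 0.507 next to the breakpoint, and ends above 1 at the far end, while both deletions stay between 0.825 and 1.08.

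Taken in steps of 50 kb against the rest of the block, the InvF ratios from the breakpoint inward were 0.632 (0.614 to 0.651), 0.774, 0.903 and 0.949. The first step of the 7 untouched windows lay between 0.936 and 1.07 in the same library. In DelB the first step stood at 1.02 and in DelBs at 1.08. The last 50 kb of the block stood at 1.14 in InvF (1.12 to 1.17), at 1.02 in DelB and at 1.04 in DelBs, and the last step of the InvF windows lay between 0.931 and 1.05. The deficit of the first 50 kb held at every distance: 0.722 for partners 20 to 100 kb away, 0.564 at 100 to 200 kb, 0.587 at 200 to 400 kb and 0.566 beyond 400 kb.

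The same 50 kb had more counts in the map as a whole. Summed bin by bin, they had 53845 counts over the whole map in InvF and 28624 in WT, a scaled ratio of 1.51. Pairs inside the 50 kb enter that sum from both of their bins. Without such pairs the 50 kb had 52003 counts in InvF and 25998 in WT before scaling. With the right-hand 250 kb beyond the inversion they had 8221 counts in InvF, 480 in DelB, 556 in DelBs and 278 in WT, which is 23.8 times WT in InvF (21.1 to 26.9). With the left-hand 250 kb they had 807 counts in InvF, 9694 in DelB, 10622 in DelBs and 7323 in WT, which left 0.0886 of WT in InvF. With the remaining 290 kb of the inversion, which lie at the same distance in both orders, they had 2630 counts in InvF, 691 in DelB, 739 in DelBs and 455 in WT, or 4.65 times WT in InvF (4.21 to 5.15). The last 50 kb of the block also changed outside partners in InvF. They stood at 0.132 of WT with the right-hand 250 kb (1.21 in DelB, 1.19 in DelBs). With the left-hand 250 kb they stood at 8.51 (1.04 and 1.06). Over the whole map they stood at 0.865 in InvF, 0.919 in DelB and 0.887 in DelBs.

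As shares of all contacts that the first 50 kb made outside themselves, 15.4% went to the rest of the block in InvF, 42.0% in DelB, 42.4% in DelBs and 39.2% in WT. The right-hand 250 kb took 15.8% in InvF, 1.35% in DelB, 1.44% in DelBs and 1.07% in WT.

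At the left end of the inversion the change of partners was steep. With a 400 kb stretch ending 60 kb to the left of the inversion, the first bin of the block kept 0.241 of WT in InvF, from 344 counts against 1149 in WT. The next bin kept 0.0653, from 65 counts against 801 in WT. The bin just outside the inversion, chr1:74820001-74830000, kept 0.743 there, and its contacts with 400 kb beyond the right end of the inversion stood at 0.923 of WT with an interval that spans 1 (0.678 to 1.26). The first bin had 29.98 times WT with the right side and the next bin had 34.7 times.

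The boundaries at chr1:74870000, 75100000 and 75310000 divide the block into 4 intervals, called A, B, C and D from its start, of 40, 230, 210 and 300 kb. A is the interval next to the breakpoint. All pairs that involve A were lower in InvF. A holds only 3 pairs of bins at least 20 kb apart, so the level within A rests on few bins. Within A, observed over expected was 0.705 in InvF, 1.19 in DelB, 1.29 in DelBs and 1.23 in WT. Between A and B it was 0.616 in InvF, 0.978 in DelB, 1.07 in DelBs and 0.962 in WT. Between A and C it was 0.420 in InvF, 0.843 in DelB, 0.819 in DelBs and 0.782 in WT. Between A and D it was 0.517 in InvF, 0.938 in DelB, 0.935 in DelBs and 0.920 in WT. InvF was the lowest library in all 4, at 0.537 to 0.640 of WT, and its intervals did not meet those of any other library.

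The 3 larger intervals kept their levels much more closely. Within B, observed over expected was 1.21 in InvF, 1.33 in DelB, 1.38 in DelBs and 1.32 in WT. Within C it was 1.05 in InvF, 1.03 in DelB, 1.05 in DelBs and 1.11 in WT. Within D, which had the highest level in every library, it was 1.53 in InvF, 1.45 in DelB, 1.41 in DelBs and 1.47 in WT. InvF was at 0.919 of WT within B, 0.949 within C and 1.05 within D, and in raw counts D was highest, B next and C lowest in all 4 libraries. On the KR-balanced signal the order differed between libraries. There D, C and B stood at 1.26, 1.2 and 1.06 in InvF, whereas C, B and D stood at 1.27, 1.24 and 1.17 in WT, so D was highest in InvF and lowest in WT. DelB had B at 1.26, C at 1.23 and D at 1.19. On that signal InvF stood at 0.855 of WT within B, 0.942 within C and 1.07 within D.

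Between the larger intervals InvF stood at 0.930 of WT for B with C, 0.867 for B with D and 1.08 for C with D. DelB stood at 1.02, 0.989 and 1.04 for these pairs and DelBs at 1.08, 0.989 and 1.03. C was lower than WT within itself in all 3 mutants and its contacts with D were higher in all 3. The 3 ratios share 1 WT library, and whether they reflect that library was not tested.

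**Figure D3:**
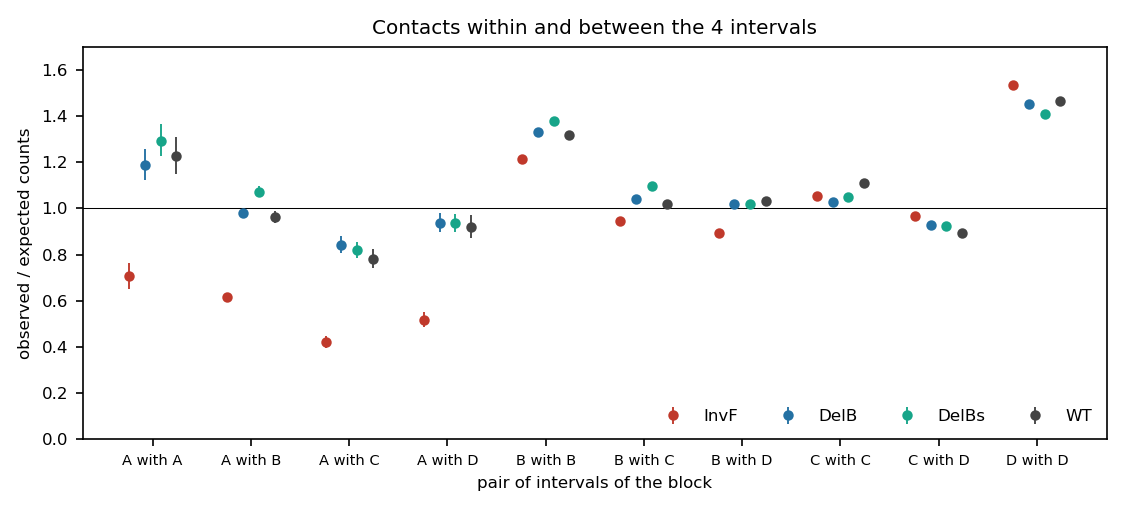
Observed over expected counts within and between the 4 intervals of the block, one position per pair of intervals on the horizontal axis, for InvF, DelB, DelBs and WT, with 95% counting intervals as bars. The 4 InvF points that involve A lie at 0.420 to 0.705, below the other libraries, while within D all 4 libraries lie at 1.41 to 1.53.

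How far each boundary separates its sides was measured inside the block only, as the log2 of observed over expected counts of pairs that cross it with both bins within 200 kb. A lower value means fewer crossing contacts. After chr1:74870000 the score was -0.70 in InvF, -0.04 in DelB, 0.10 in DelBs and -0.05 in WT. The InvF difference from WT was -0.65 (-0.70 to -0.59), against -0.09 to 0.09 at the same place in the 7 windows, and on the KR-balanced signal it was -0.98. Only 40 kb of the block lie to the left of this position, so the score holds the same bins that lost contacts at every distance, and a change of the boundary itself cannot be told apart from that. Without the first bin the difference was -0.53.

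The other boundaries differed less from WT. After chr1:75100000 the score was -0.07 in InvF, 0.03 in DelB, 0.11 in DelBs and 0.00 in WT. After chr1:75310000 it was -0.05 in InvF, -0.09 in DelB, -0.11 in DelBs and -0.13 in WT. The InvF differences from WT were -0.07 and 0.08, and the DelBs difference after 75100000 was 0.11. After 75100000 the InvF difference depended on the setting, with -0.10 on KR values, -0.19 with a 300 kb window and -0.0049 with a 100 kb window, where DelBs had 0.074, 0.074 and 0.14.

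Whether each boundary would be found as a minimum depended on the values. A position counted as a minimum if the score climbed by 0.2 or more within 200 kb both to its left and to its right. In raw counts WT had minima after 75100000, 75310000 and 75470000, with depths of 0.25, 0.38 and 0.30. DelBs had them after 75310000 and 75470000, and both InvF and DelB had them after 75250000 and 75470000. The minimum after 75250000 lies 60 kb from the boundary at 75310000, on a stretch where the InvF score was nearly flat. On the KR-balanced signal all 4 libraries had a minimum after 75320000, with depths of 0.38 in InvF, 0.44 in DelB, 0.47 in DelBs and 0.52 in WT. No KR minimum lay at 75100000 in any library. The bins from chr1:75100001 to 75120000 held the fewest counts of the block in WT (1120 and 1069), and the raw minimum stands beside them. The minimum after 75470000, which is not among the 3 boundaries, was present in all 4 raw maps.

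**Figure D4:**
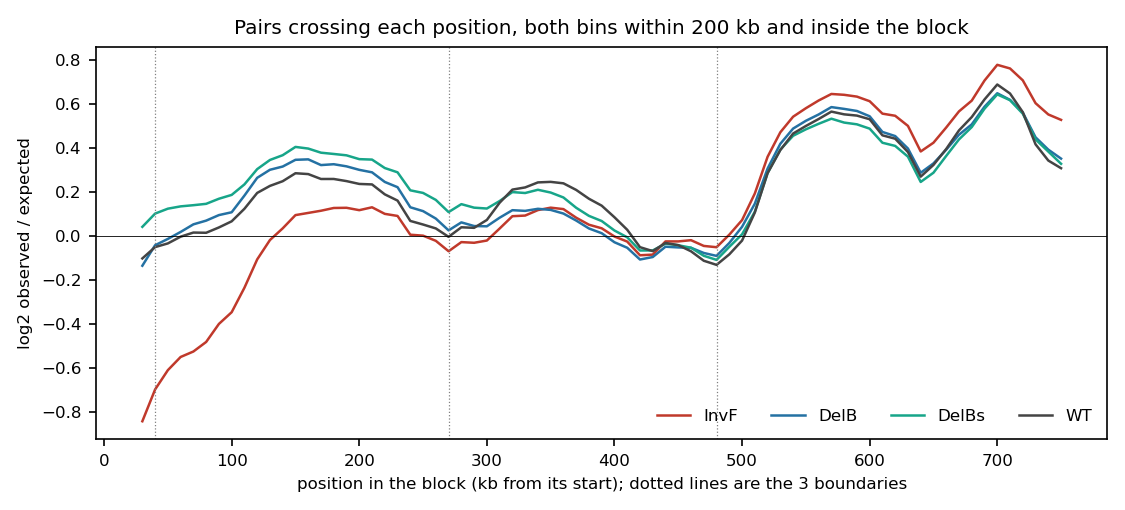
Log2 observed over expected counts of pairs that cross each position of the block, with both bins within 200 kb and inside the block, against the position in kb from the block start, for InvF, DelB, DelBs and WT, with dotted lines at the 3 boundaries. The InvF line lies below the others up to 340 kb and is furthest from them over the first 100 kb. It stands at -0.70 at the first boundary against -0.05 in WT, and at 0.12 at 200 kb against 0.24 in WT. All 4 lines lie close together at the boundary at 480 kb.

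The strong point contacts of WT stayed above the expected level in the other libraries. The 10 pairs at least 100 kb apart with the highest observed over expected value were chosen in WT out of 1446, so their WT values are high by choice and only the other libraries bear on them. The leading pair joins chr1:75330001-75340000 and chr1:75460001-75470000, 130 kb apart inside D. It held 425 counts in InvF, 473 in DelB, 474 in DelBs and 324 in WT, or 6.91, 6.82, 6.55 and 6.55 times expected. The pair beside it, chr1:75340001-75350000 with the same partner, stood at 6.85 in InvF, 6.18 in DelB, 7.13 in DelBs and 6.18 in WT. Both InvF values lie within the counting intervals of WT (5.85 to 7.30 and 5.52 to 6.88).

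A longer contact joins B and C, between chr1:74990001-75000000 and chr1:75270001-75280000, 280 kb apart and across the boundary at 75100000. It stood at 3.61 times expected in InvF, 3.41 in DelB, 3.41 in DelBs and 3.62 in WT. Of the 10 pairs 6 lie within D, 2 within B and 2 between B and C, and none has a bin in A. The bin chr1:75460001-75470000 takes part in 4 of them, so they are not 10 separate sites. That bin also had the highest sum of counts inside the block, 9283 in InvF and 7102 in WT. Coverage stays with the sequence, so part of a high raw value can recur in every library for that reason, which was not tested. The medians of the 10 were 3.58 in InvF, 3.36 in DelB, 3.53 in DelBs and 3.63 in WT. The lowest were 2.64 in InvF, 2.26 in DelB and 2.39 in DelBs, all for the pair chr1:75090001-75100000 with chr1:75270001-75280000, which stood at 3.35 in WT. On the KR-balanced signal the medians were 2.14, 2.04, 2.15 and 2.29.

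The block was last divided into 91 sub-blocks, the pairs of its 13 intervals of 60 kb, and one was counted as changed where its scaled ratio to WT passed 1.2 fold with a pseudocount of 1. In InvF 19 of the 91 were lower, against 2.8% of 1323 untouched sub-blocks at the same separations, and 3 were higher, against 1.74%. The untouched sub-blocks were not spread evenly: among the 7 windows of the same size, 0 to 16 of 91 were lower in InvF and 0 to 7 were higher. The 16 were all in 1 window, chr1:78260001-79040000, and every other window had 0 or 1 lower. The total of 19 stands above every window but close to that one, and the 3 stand within the range. Of the 13 that have a side in the first 60 kb, 12 were lower, with a median log2 ratio of -0.76. Of the other 78, 7 were lower, or 8.97%, which is above the 2.8% of the untouched sub-blocks. Among the whole windows only chr1:78260001-79040000 had more lower ones. The median of the 78 was -0.03, against -0.01 in the untouched sub-blocks. In DelB 1 was lower (2.49%) and 1 higher (3.78%). In DelBs 1 was lower (5.37%) and 2 were higher (4.91%), so neither deletion passed its background in the block. Past 1.5 fold, 10 were lower in InvF, all with a side in the first 60 kb, against 0.227% of the untouched ones, and 0 in DelB (0.227%) and DelBs (0.302%). None was higher by 1.5 fold in any mutant, against 0.0756% of the untouched ones in each. Counted in either direction, 22 changed past 1.2 fold in InvF (background 4.54%), 2 in DelB (6.27%) and 3 in DelBs (10.3%), and past 1.5 fold the backgrounds were 0.302%, 0.302% and 0.378%.

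The lowest sub-block in InvF joined the first 60 kb to chr1:75370001-75430000 in D, with 266 counts in InvF and 423 in WT, a ratio of 0.506 (0.432 to 0.591). DelB stood at 1.01 there and DelBs at 0.958. The next lowest joined the first 60 kb to chr1:75310001-75370000, at 0.522 in InvF, 0.974 in DelB and 1.02 in DelBs. Of the 7 lower ones elsewhere, 4 had a side in the second 60 kb, chr1:74890001-74950000, at 0.725 to 0.792 in InvF. The other 3 joined the stretch chr1:75010001-75130000 to chr1:75250001-75370000, on or across the boundary at 75100000, at 0.774 to 0.824. One of these, chr1:75070001-75130000 with chr1:75250001-75310000, was at 0.805 in DelB, where it was the only lower one.

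The 3 higher sub-blocks in InvF all joined C to the last 60 kb of the block. They stood at 1.39, 1.24 and 1.32 of WT, from chr1:75130001-75190000, chr1:75190001-75250000 and chr1:75250001-75310000 in that order. The leading one held 801 counts in InvF, 855 in DelB, 940 in DelBs and 462 in WT. It was also the highest in DelB, at 1.29 (1.15 to 1.45), and in DelBs, at 1.36 (1.21 to 1.52), against the same WT library.

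**Figure D5:**
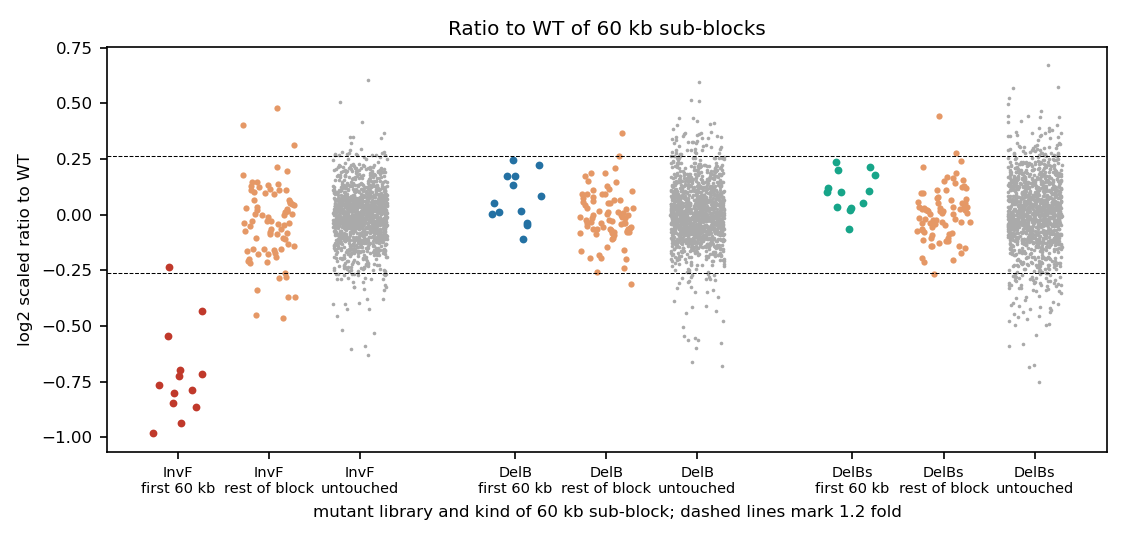
Log2 scaled ratio to WT of the 60 kb sub-blocks of the block, one point each, for InvF, DelB and DelBs, split into those with a side in the first 60 kb and the others, beside the 1323 untouched sub-blocks of the map in grey. The InvF points of the first 60 kb have a median of -0.76 and 12 of 13 lie below the lower dashed line at 1.2 fold, whereas those of DelB and DelBs lie between the dashed lines.

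The authors' deposited table of differences between InvF and WT holds mostly pairs at 0. In the authors' deposited table, inside the block 39 of 2926 pairs were not 0, or 1.33%, against 1.22% of 16024 untouched pairs, of which 176 were above 0 and 20 below. Of the 370 pairs with a bin in the first 50 kb, 12 in the authors' deposited table were below 0 and 0 above. Among the other 2556, 10 in that same table were below 0 and 17 above. The authors' deposited tables for DelB and DelBs held 0 and 1 pairs that were not 0 inside the block, against 6 and 4 of the 16024 untouched pairs.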

How the data were processed

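Capture Hi-C libraries of 4 genotypes, 1 each, were analysed. Mapping used Bowtie2 2.2.6 and the build mm9, per the submitters' processing notes; the mapping quality minimum of 30 is per the file names. In the deposited raw maps the values are whole counts for each pair of bins, which are 10 kb wide. The deposited normalized maps hold a signal that the authors balanced by the KR method, as the file names say; up to 16 pairs per map had no value and were set to 0. The deposited difference maps hold a score with a formula not given in the sources used here. Removal of PCR duplicates is not given either, so intervals cover counting error only.

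Python 3.11.15, numpy 2.4.6, scipy 1.17.1, pandas 2.3.3 and matplotlib 3.10.9 were used. A deletion was the longest stretch of bins whose share of counts lay below 10% of that in WT, and the inversion was the pair of breakpoints with the highest contrast of its 100 kb corners. Pairs under 20 kb apart were left out. Ratios have exact conditional binomial intervals, observed over expected values exact Poisson intervals and shares exact Clopper-Pearson intervals, at 95%. Crossing scores were not computed within 30 kb of the block's ends. The 7 windows lie at least 200 kb from any rearrangement. Named regions were the block, its boundaries and intervals, the 10 strong pairs, the end next to the breakpoint, and, out of the 5 highest and 5 lowest sub-blocks per mutant, those given with values; other sub-blocks were named after their values were seen. With 1 library per genotype no test across genotypes was made. Scripts were tested on simulated data. The block, its boundaries and the measures were chosen with earlier results of these data known.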

Additional observations from a re-analysis of the deposited data

How the results depend on the processing

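Of the results that answer a comparison, 110 alternative values stayed close to the main value, 73 moved and 5 reversed. A value counted as reversed only where the main interval excluded no difference and the value fell on the other side. The DelBs crossing difference after 75310000 had a main interval of -0.0066 to 0.052, so its value of -0.0087 counted as moved. For block totals, boundary crossings and shares kept inside, close meant within counting error. For map likeness it meant within the standard deviation of the correlation over the 7 untouched windows. Numbers of changed sub-blocks and of boundaries found have no counting interval and were not judged by counting error. The reversals were all block totals near 1: 1.01 for InvF, 1.3 for DelB and 1.3 for DelBs with scaling by all counts, 1.00 for DelB on KR values, and 1.00 for DelBs with pairs at least 50 kb apart (where DelB was 0.992). Other block totals in the order InvF, DelB, DelBs were 0.932 and, for DelBs, 0.991 on KR values; 0.918, 0.919 and 0.910 with pairs within a bin; 0.998, 0.968 and 0.971 without the first 100 kb; 0.979 (InvF) and 0.977 (DelBs) without the first 50 kb; and 0.962 (InvF) without the first bin. Leaving out the first bin or the first 100 kb was chosen after seeing the data. Distance bands also reversed. With scaling by all counts they were 1.01, 1.02 and 1.03 for InvF from 20, 100 and 200 kb, 1.26 and 1.31 for DelB from 20 and 100 kb, and 1.25 for DelBs from 20 kb. With scaling by the sum inside the block they were 1.00, 1.01 and 1.02 for InvF and 1.01 for DelB from 100 kb; on KR values the last was 1.01, and D within itself was 1.01 in DelBs. The crossing difference of InvF after 74870000 was -0.98 on KR values, -0.58 with a 100 kb window, -0.72 with pairs at least 50 kb apart and -0.53 without the first bin; it has no value without the first 50 or 100 kb. After 75100000, InvF, DelB and DelBs were -0.10, 0.063 and 0.074 on KR values and -0.0049, 0.096 and 0.14 with a 100 kb window; InvF and DelBs were -0.19 and 0.074 with a 300 kb window and -0.029 and 0.081 with the block's own expected level. After 75310000, DelB and DelBs were 0.10 and 0.074 on KR values, InvF and DelB 0.042 and 0.0048 with a 100 kb window, and InvF and DelBs 0.12 and -0.0087 with the block's own level. Boundaries found of the 3 were 0, 0, 1 and 2 in InvF, DelB, DelBs and WT; InvF, DelB and DelBs had 2 each with a 100 kb window, InvF 2 and DelB 1 with 300 kb, InvF, DelB and WT 1 each on KR values, InvF 1 and DelBs 2 at a depth of 0.1, and DelBs and WT 0 at 0.4. Map likeness of InvF, DelB and DelBs was 0.69, 0.92 and 0.93 on KR values, and 0.90 and 0.95 for InvF without the first 50 or 100 kb. Shares kept inside in InvF, DelB, DelBs and WT were 43.4%, 49.4%, 49.1% and 48.6% on KR values and 56.0%, 62.9%, 62.1% and 62.0% with pairs within a bin. Changed sub-blocks in InvF, DelB and DelBs numbered 22, 2 and 3; they were 10, 0 and 0 at 1.5 fold, 6, 0 and 0 with 130 kb and 112, 39 and 36 with 30 kb sub-blocks; DelB had 6 on KR values, 6 (DelBs 7) with pairs at least 50 kb apart, 82 (DelBs 83) with scaling by all counts and 4 with scaling by the block; InvF had 7 without the first 100 kb. The cause of these moves was not tested, except that smaller sub-blocks hold fewer counts and a higher fold passes fewer. No paired analysis was possible because each genotype has 1 library. Depth limits single pairs and sub-blocks: the strong pairs go down to 122 counts in InvF and 98 in WT, the sub-blocks to 266 and 260, and the bin sums to 1249 and 1069.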
